A study of Mus musculus with 9 samples.

Results

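The genes described here are 9 costimulation and checkpoint genes, Cd28, Cd80, Cd86, Cd274, Pdcd1lg2, Icosl, Cd40, Havcr2 and Cd3e, out of 45777 gene IDs measured. They were picked by symbol, with their transcript levels in these same libraries already known, so their levels and group differences are given as a description and without a test. RNA was sequenced from CD11b+ cells (CD11b is the integrin alpha M chain carried by most myeloid cells) isolated from dissociated mouse liver. All 9 samples came from livers taken 48 h after an intraperitoneal dose of acetaminophen (APAP), which injures the liver, and there was no group without APAP. In 3 samples the treatment was PBS. In 3 samples it was the vesicle preparation labelled "HEK cell derived SIRP-EV", called HEK-EV here. In the other 3 samples it was the one labelled "MSC derived SIRP-EV", called MSC-EV here. Vesicles were given intravenously 8 h after APAP. Strain, age and whether samples were single or pooled animals are not given in the sources used here. Nothing in the labels says that the samples of a group came from separate animals, so spreads and p-values measure the variation between these samples only.

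CD28 is the receptor through which T cells receive the costimulatory signal that accompanies antigen recognition, and its ligands CD80 and CD86 sit on antigen-presenting cells such as macrophages and dendritic cells. The related ligands PD-L1 (Cd274) and PD-L2 (Pdcd1lg2) engage the inhibitory receptor PD-1, and ICOS ligand (Icosl) engages the CD28 relative ICOS. CD40 is a TNF-receptor family member that licenses antigen-presenting cells when T cells display its ligand, TIM-3 (Havcr2) is an inhibitory receptor of T cells that myeloid cells also carry, and CD3 epsilon (Cd3e) is a chain of the T-cell receptor complex.

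In the MSC-EV samples Cd28 transcripts were 3.52 times the PBS level and 3.54 times the HEK-EV level by mean TPM (a transcript abundance scaled by gene length, on which each library sums to the same total). Cd86, Icosl and Havcr2 were lower in every MSC-EV sample than in every PBS or HEK-EV sample. Cd80, Cd274, Pdcd1lg2 and Cd40 overlapped between all groups. Cd3e was below 1 TPM in every sample. The other 8 genes had at least 1 TPM in every sample and passed the filter of at least 1 TPM in at least 3 samples, as did 13820 genes in all.

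The libraries carried the RNA of myeloid cells. Macrophage and monocyte markers summed to between 5690 and 6718 TPM over the 9 samples, and Itgam, which encodes CD11b itself, lay between 196 and 434 TPM. Markers of other liver cells were also present, with summed hepatocyte markers between 140 and 493 TPM and biliary markers other than Spp1, which macrophages also express, between 4.55 and 19.4 TPM. Some libraries stood apart by pancreatic acinar transcripts, whose 21 markers summed to 3224 and 153 TPM in replicates 3 and 1 of MSC-EV, to 1132 and 40.2 TPM in replicates 2 and 1 of HEK-EV, and to between 13.3 and 15.4 TPM in the other 5 libraries. Across all genes tested, limma with Benjamini-Hochberg adjustment called 706 genes between MSC-EV and PBS (257 higher, 449 lower). It called 817 between MSC-EV and HEK-EV (209 higher, 608 lower) and 0 between HEK-EV and PBS. An unadjusted p under 0.05 was reached by 3184 genes (23.0%) between MSC-EV and PBS, 3217 (23.3%) between MSC-EV and HEK-EV, and 495 (3.58%) between HEK-EV and PBS, the base for such counts in the lists. The share of calls that were higher depended on the scale. Against PBS it was 36.4% on TPM as deposited, 45.6% after median-of-ratios scaling, 44.5% after quantile normalization and 63.1% on FPKM, and against HEK-EV it was 25.6%, 43.9%, 45.5% and 59.5% in the same order. Read counts were not used here and depth is known only in relative terms, so no counting interval is given.

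Cd28 (gene ID 12487, chr1:60746388-60773359, plus strand, mm10/GRCm38) stood at 3.53, 1.53 and 1.61 TPM in PBS replicates 1, 2 and 3. HEK-EV samples had 2.46, 2.52 and 1.67 TPM. MSC-EV samples had 9.47, 8.68 and 5.37 TPM. The lowest MSC-EV sample was above the highest sample of either other group, while PBS and HEK-EV overlapped. Group means were 2.23 ± 1.13 TPM in PBS, 2.22 ± 0.474 in HEK-EV and 7.84 ± 2.17 in MSC-EV (SD, n = 3 each). On log2(TPM + 1), a scale that understates differences of low genes, MSC-EV differed from PBS by 1.48 (SE 0.26) and from HEK-EV by 1.44 (SE 0.26), and HEK-EV from PBS by 0.04 (SE 0.26). PBS replicate 1 was the highest of its group, and leaving it out gave a difference of 1.75 from PBS. Without MSC-EV replicate 3, the library with the most acinar RNA, the difference was 1.70, and with the acinar split as a term in the fit (4 libraries against 5) it was 1.43. In a bulk sample, a change in the number of cells of a type and a change in RNA per cell cannot be told apart.

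The Cd28 reads were also visible in the deposited coverage, the mean read depth over the gene. It was 7.23, 3.62 and 4.33 reads per base in PBS, 6.12, 6.55 and 4.03 in HEK-EV, and 25.5, 25.4 and 14.5 in MSC-EV. Coverage is not scaled for depth, but the same 3 samples were high, with no overlap. On this unscaled measure Cd86, Icosl and Havcr2 did overlap between MSC-EV and PBS, unlike on TPM. Cd86 coverage was 63.1 to 78.6 reads per base in MSC-EV and 73.9 to 97.5 in PBS, Icosl coverage 116 to 122 and 101 to 132, and Havcr2 coverage 140 to 192 and 181 to 234. The ratio of coverage to FPKM, which follows library depth, was between 5.06 and 6.05 in PBS, 5.98 and 6.20 in HEK-EV, and 6.31 and 6.56 in MSC-EV, so relative depth was higher in all MSC-EV libraries than in all others. With depth as a covariate the log2 difference of Cd28 TPM between MSC-EV and PBS was 2.03 (SE 0.341). Because MSC-EV depth did not overlap that of the other groups, such a fit cannot tell depth and treatment apart.

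**Figure D1:**
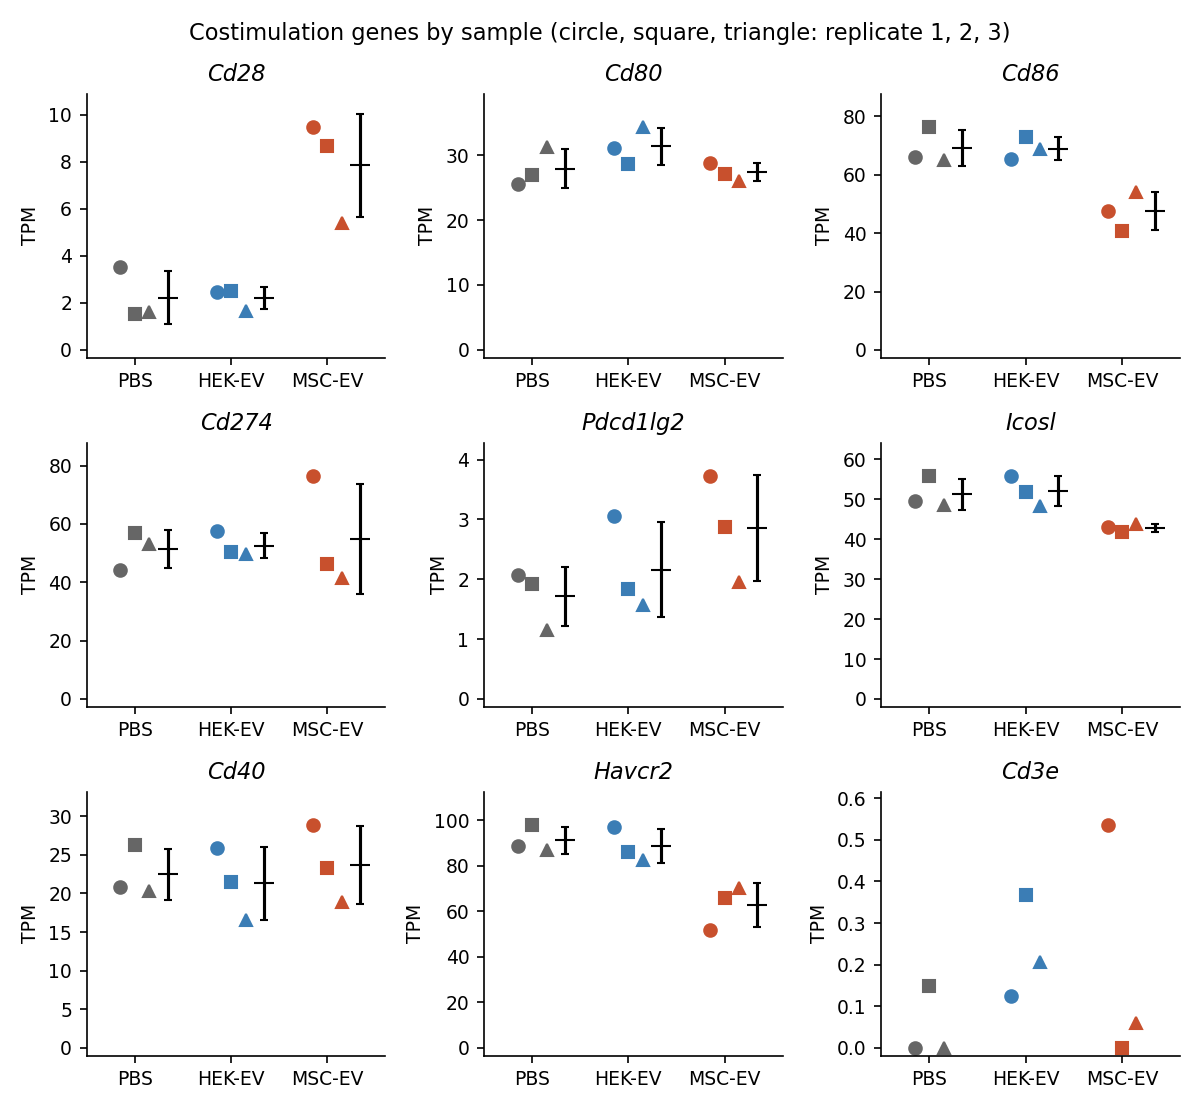
TPM of the 9 costimulation genes in each sample, by group (circle, square and triangle: replicates 1, 2 and 3). Black bars are the mean and SD of 3 samples, omitted for Cd3e, which was listed at 0 in 3 samples. Cd28 is higher, and Cd86, Icosl and Havcr2 are lower, in all MSC-EV samples than in all others.

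Cd3e (gene ID 12501, chr9:44998735-45009663, minus strand), the member that marks T cells, did not share this pattern. It was listed at 0, 0.148 and 0 TPM in PBS, at 0.126, 0.367 and 0.206 TPM in HEK-EV, and at 0.536, 0 and 0.0611 TPM in MSC-EV. MSC-EV replicate 2 had 8.68 TPM of Cd28, with Cd3e listed at 0, Cd3g at 0.199 TPM and Cd4 at 4.94 TPM. The 3 CD3 chains Cd3d, Cd3e and Cd3g summed to between 0.766 and 1.03 TPM in PBS, 0.364 and 1.72 in HEK-EV, and 0.251 and 1.68 in MSC-EV. Of 12 T cell markers, 3 passed the filter (Cd4, Cd2 and Lck), limma called 0 of them in any comparison, and 0 had an unadjusted p under 0.05. The log2 differences of MSC-EV from PBS were 0.43 for Cd4, -0.09 for Cd2 and 0.05 for Lck. The other 9 summed to between 2.30 and 2.45 TPM in PBS, 1.35 and 3.40 in HEK-EV, and 1.39 and 3.52 in MSC-EV. The summed T cell markers without those 3 overlapped between groups in which Cd28 did not. These 9 markers did not pass the filter, so their levels are uncertain. The part of T cells in the Cd28 level was not tested.

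The genes whose level most resembled that of Cd28 over the 9 samples were Atp6v0d2, which encodes a subunit of the proton pump of lysosomes, and Hvcn1, a voltage-gated proton channel, followed by Anxa4, Arl11 and Adi1. Pearson's r was 0.995 for Atp6v0d2 and 0.994 for Hvcn1, and 0.991 to 0.992 for the other 3. With group means removed, r was 0.984 for Atp6v0d2 and 0.980 for Hvcn1. Atp6v0d2 stood at 9.59, 2.91 and 3.07 TPM in PBS, 6.99, 5.59 and 4.10 in HEK-EV, and 35.2, 30.3 and 16.1 in MSC-EV. PBS replicate 1 was the highest PBS sample and MSC-EV replicate 3 the lowest MSC-EV sample for both genes. These correlations are descriptions over 9 samples that share libraries and groups, picked as the highest of all genes with a mean of at least 5 TPM.

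The summed TPM of mature dendritic cell markers was also higher where Cd28 was. The 6 markers summed to between 15.1 and 25.4 TPM in PBS, 18.1 and 24.3 in HEK-EV, and 27.4 and 46.8 in MSC-EV, without overlap. By gene, Fscn1 overlapped between MSC-EV and both other groups. The lowest MSC-EV level of Ccl22, 9.76 TPM, was below the 9.95 TPM of PBS replicate 1. Of the 5 past the filter, limma called 1 against PBS, Cacnb3, a calcium-channel subunit that rose by 1.05 (log2, SE 0.257, adjusted p = 0.0492), and 0 against HEK-EV, where 3 had an unadjusted p under 0.05. The Cacnb3 call was lost without 7 of the 9 libraries in turn and in 6 of 11 other settings, with adjusted p between 0.00131 and 0.187. Conventional dendritic cell markers summed to between 121 and 148 TPM in PBS, 102 and 135 in HEK-EV, and 147 and 182 in MSC-EV, most of it Cd209a. Without Cd209a the sums overlapped, at 57.3 to 64.3 TPM in PBS, 54.2 to 63.5 in HEK-EV and 57.1 to 68.1 in MSC-EV. Of the 6 past the filter 3 had positive and 3 negative log2 differences from PBS, with a median of -0.02. Limma called 0 of them, and the 2 with an unadjusted p under 0.05 against PBS went opposite ways (Flt3 0.37, Batf3 -0.28). The biliary list summed to between 737 and 1707 TPM in PBS, 890 and 1178 in HEK-EV, and 1767 and 2356 in MSC-EV. Nearly all of that was Spp1 (osteopontin), which macrophages also express, at 732 to 1702 TPM in PBS, 884 to 1172 in HEK-EV and 1754 to 2336 in MSC-EV. Without Spp1 the biliary markers summed to between 4.55 and 5.88 TPM in PBS, 6.13 and 7.19 in HEK-EV, and 11.2 and 19.4 in MSC-EV, and of the 5 list members past the filter, Spp1 included, 3 (Krt19, Epcam and Sox9) rose in limma against both groups. Hepatocyte markers were between 190 and 256 TPM in PBS, 140 and 270 in HEK-EV, and 352 and 493 in MSC-EV, and limma called 2 of 7 higher against PBS (Apoa1 and Cyp2e1) and 2 against HEK-EV (Alb and Apoa1).

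Plasmacytoid dendritic cell markers were mixed. Cox6a2 was higher in all MSC-EV samples (2.08 to 3.37 TPM) than in PBS (0.910 to 1.39) or HEK-EV (0.668 to 2.01), but limma did not call it (adjusted p = 0.0674 against PBS). Of the 4 past the filter limma called 1 against PBS, Tcf4, which rose by 0.75 (log2, adjusted p = 0.0379), and its mean was 8.57 TPM in PBS, 14.9 in HEK-EV and 15.3 in MSC-EV. HEK-EV and MSC-EV overlapped for Tcf4, with a log2 difference of 0.03. Siglech had negative log2 differences, -0.22 from PBS and -0.16 from HEK-EV, and Klk1 was highest in the libraries with the most acinar RNA, at 52.2 TPM in MSC-EV replicate 3 and 18.95 in HEK-EV replicate 2, and at most 2.85 TPM elsewhere. Against HEK-EV limma called 0 of the 4, with 1 at an unadjusted p under 0.05. NK cell markers summed to between 23.5 and 33.99 TPM in PBS, 23.7 and 33.7 in HEK-EV, and 27.6 and 37.8 in MSC-EV. All 4 NK markers past the filter had positive log2 differences in both MSC-EV comparisons, with Ncr1 and Gzma free of overlap, and limma called 0, with 2 at an unadjusted p under 0.05 in each. B cell markers summed to between 23.1 and 36.1 TPM in PBS, 27.4 and 37.0 in HEK-EV, and 32.1 and 42.7 in MSC-EV. All 3 B cell markers past the filter had positive differences from PBS, of which limma called 0 and 2 had an unadjusted p under 0.05. Against HEK-EV 2 were positive and Cd79a was negative (-0.23), with 0 called and 2 at an unadjusted p under 0.05. The part of any of these cells in the Cd28 level was not tested.

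**Figure D2:**
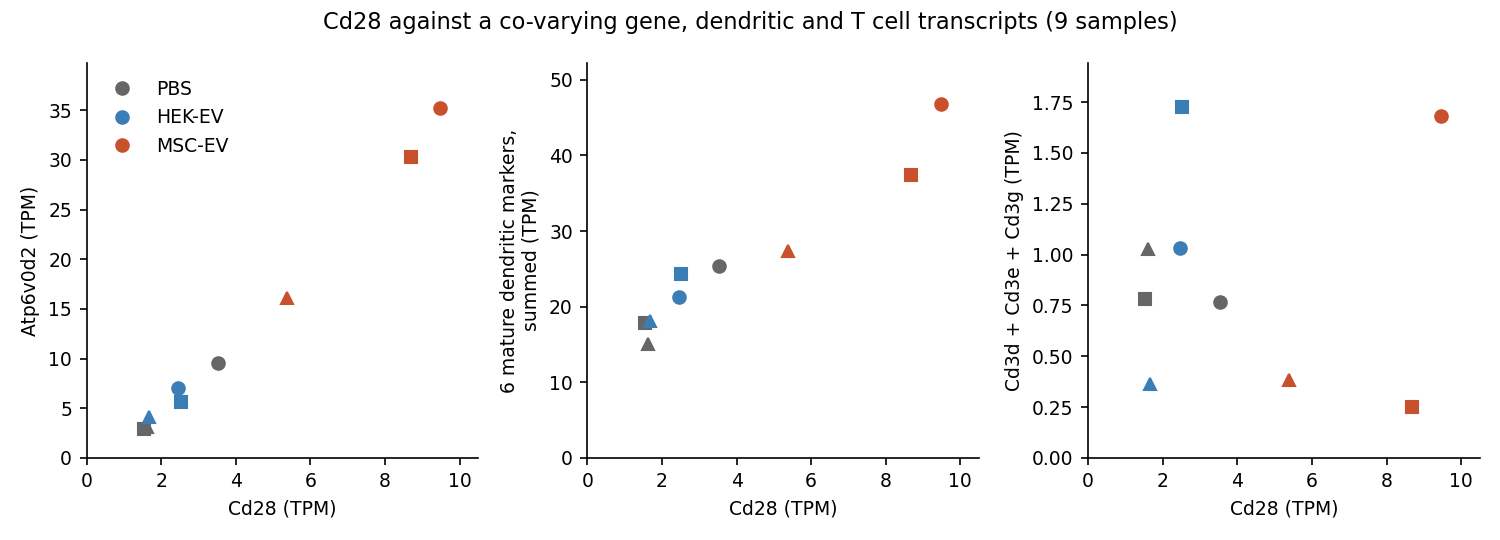
Cd28 TPM (horizontal axis) in the 9 samples against the TPM of Atp6v0d2, the summed TPM of 6 mature dendritic cell markers, and the summed TPM of Cd3d, Cd3e and Cd3g (vertical axes). Symbols mark replicates 1 (circle), 2 (square) and 3 (triangle), and colours mark the groups. The 3 MSC-EV samples lie at the upper right of the first panels, and 2 of them are among the 3 lowest samples for the CD3 chains.

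The 2 ligands of CD28 differed from each other. Cd86 (gene ID 12524, chr16:36568956-36666158, minus strand) had 66.1, 76.3 and 65.1 TPM in PBS, 65.2, 72.8 and 68.6 in HEK-EV, and 47.6, 40.9 and 53.9 in MSC-EV. All 3 MSC-EV samples were below the lowest sample of the other groups, and PBS and HEK-EV overlapped. The mean was 69.2 ± 6.19 TPM in PBS, 68.9 ± 3.82 in HEK-EV and 47.4 ± 6.52 in MSC-EV (SD, n = 3 each). The MSC-EV level was 0.686 times that of PBS, a log2 difference of -0.54 (SE 0.103). Against HEK-EV the log2 difference was also -0.54 (SE 0.103), and HEK-EV differed from PBS by -0.0037 (SE 0.103). Without MSC-EV replicate 3 the difference from PBS was -0.63, and with the acinar split as a term it was -0.64.

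Cd80 (gene ID 12519, chr16:38457430-38495958, plus strand), on the same chromosome, had 25.6, 26.9 and 31.2 TPM in PBS, 31.1, 28.6 and 34.3 in HEK-EV, and 28.8, 27.2 and 26.0 in MSC-EV. The groups overlapped in every comparison. Its log2 difference was -0.02 (SE 0.0929) between MSC-EV and PBS, 0.16 between HEK-EV and PBS, and -0.19 between MSC-EV and HEK-EV. The difference of MSC-EV from PBS was 0.06 without PBS replicate 3 and -0.155 with depth as a covariate. That of HEK-EV from PBS ran from 0.096 to 0.244 with 1 library left out. The Cd80 span overlaps the annotated genes Gm8590 and Ck-ps3 on the same strand and Gm41453 on the other. The use of strand in read assignment is not given in the sources used here. It could not separate genes on the same strand, so the Cd80 level is uncertain to that extent. Cd86 transcripts per Cd80 transcript, as a ratio of TPM, were 2.58, 2.84 and 2.08 in PBS, 2.1, 2.55 and 2.0 in HEK-EV, and 1.65, 1.51 and 2.07 in MSC-EV. MSC-EV replicates 1 and 2 had the lowest ratios, while replicate 3 lay just below PBS replicate 3 and inside the HEK-EV range. Cd80 and Cd86 together were 91.7, 103 and 96.4 TPM in PBS, 96.3, 101 and 103 in HEK-EV, and 76.4, 68.0 and 79.9 in MSC-EV, so the summed ligands of CD28 were lower in all MSC-EV samples.

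The genes most like Cd86 over the 9 samples included Ripk3, a kinase of necroptosis, Hgsnat, a lysosomal enzyme, Scarb1, a lipoprotein receptor, and Cd72, a B-cell surface protein. The r of these 4 with Cd86 ran from 0.975 to 0.984, and from 0.858 to 0.931 with group means removed. Cd28 and Cd86 had r of -0.918, and -0.514 with group means removed, over the same 9 samples, so the relation was weaker within groups.

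Promoters are shown for Icosl and Havcr2, which were both lower in MSC-EV samples, and for the neighbours Cd274 and Pdcd1lg2, which overlapped between groups. Each is the 250 bases before the RefSeq start (GRCm38.p6, plus strand), and 6 of the 9 genes matched the promoter table. Cd28, Cd86 and Cd40 had no entry. Capitals mark the letters AGAGGAAGT, a sequence bound by the myeloid factor PU.1.
Icosl, chr10:78069118-78069367: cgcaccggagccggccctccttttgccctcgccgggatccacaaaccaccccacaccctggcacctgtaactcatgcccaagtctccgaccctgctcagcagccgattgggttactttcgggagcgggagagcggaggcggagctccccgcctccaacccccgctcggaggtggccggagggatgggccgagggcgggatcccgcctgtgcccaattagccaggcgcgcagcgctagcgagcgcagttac
Havcr2, chr11:46454681-46454930: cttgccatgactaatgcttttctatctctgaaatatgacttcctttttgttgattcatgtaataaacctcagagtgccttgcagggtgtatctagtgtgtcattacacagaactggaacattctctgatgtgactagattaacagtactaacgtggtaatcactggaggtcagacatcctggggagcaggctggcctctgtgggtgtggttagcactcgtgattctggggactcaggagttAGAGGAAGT
Cd274, chr19:29367188-29367437: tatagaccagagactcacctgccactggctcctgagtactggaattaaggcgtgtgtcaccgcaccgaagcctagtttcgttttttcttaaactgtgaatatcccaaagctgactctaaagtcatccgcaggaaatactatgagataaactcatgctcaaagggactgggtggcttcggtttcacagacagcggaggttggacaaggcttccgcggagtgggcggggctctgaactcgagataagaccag
Pdcd1lg2, chr19:29410669-29410918: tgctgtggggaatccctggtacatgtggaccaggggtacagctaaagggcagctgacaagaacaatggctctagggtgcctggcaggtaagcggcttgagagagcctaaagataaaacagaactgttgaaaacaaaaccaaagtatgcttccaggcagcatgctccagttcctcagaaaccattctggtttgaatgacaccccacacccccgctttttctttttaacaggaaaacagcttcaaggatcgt
AGAGGAAGT, searched on both strands, occurred once among the 6 windows, in Havcr2, where it starts 9 bases before the start site and ends at it. The same letters were present in 0.829% of 27025 promoter windows of this length. The interferon-gamma activated site (TTCNNNGAA, in 7.18% of windows), the interferon response repeat (GAAA, 2 bases of any kind and GAAA again, in 3.04%) and a form of the NF-kappaB site (GGG, then 2 bases of any kind, then TTTCC, in 1.4%) had no match in the 6 windows, which says only that these letters are not there. The Icosl window was the richest in G and C, at 68.8% with 23 CpG pairs, against 44.8% and 2 pairs in Havcr2. The Cd274 and Cd80 windows lie inside the spans given for those genes, whose first annotated starts are further upstream. The Cd3e window runs partly into the span of its gene.

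Icosl (gene ID 50723, chr10:78069368-78079525, plus strand) had 49.4, 55.7 and 48.5 TPM in PBS, 55.8, 51.8 and 48.3 in HEK-EV, and 43.1, 41.8 and 43.8 in MSC-EV. The MSC-EV samples lay close together and below all others. The means were 51.2 ± 3.93 TPM in PBS, 52.0 ± 3.78 in HEK-EV and 42.9 ± 1.01 in MSC-EV (SD, n = 3 each). The log2 difference of MSC-EV was -0.25 (SE 0.0733) from PBS and -0.27 (SE 0.0733) from HEK-EV. This was the smallest difference among the 4 genes without overlap. It was -0.26 from PBS without MSC-EV replicate 3 and -0.32 with the acinar split as a term. Its receptor gene Icos, a CD28 relative of activated T cells, averaged 5.08 ± 0.777 TPM in PBS, 5.18 ± 1.63 in HEK-EV and 3.95 ± 1.53 in MSC-EV (SD, n = 3 each), and limma did not call it (adjusted p = 0.486 against PBS). Icosl overlaps the annotated gene Gm51775 on the other strand.

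The PD-1 ligands overlapped between all groups. Cd274 (gene ID 60533, chr19:29362107-29388095, plus strand) had 44.2, 57.0 and 53.1 TPM in PBS, 57.6, 50.4 and 49.8 in HEK-EV, and 76.4, 46.4 and 41.4 in MSC-EV. MSC-EV replicate 1 was the highest of all samples and replicate 3 the lowest. The log2 difference of MSC-EV from PBS was 0.04 (SE 0.198), and without MSC-EV replicate 1 it was -0.22. With the acinar split as a term it was -0.08, so its sign depended on the libraries and the fit used. The gene overlaps Plgrkt and Gm36043 on the other strand. Irf1, the interferon-induced factor known to drive Cd274, tracked it, with 135, 164 and 147 TPM in PBS, 176, 147 and 133 in HEK-EV, and 212, 133 and 133 in MSC-EV. Across the 9 samples r between Cd274 and Irf1 was 0.946, with group means removed 0.948, and without MSC-EV replicate 1 0.859. This pair was chosen after its values were seen.

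Pdcd1lg2 (gene ID 58205, chr19:29410919-29472927, plus strand) was far lower than Cd274, with 2.08, 1.92 and 1.16 TPM in PBS, 3.06, 1.84 and 1.57 in HEK-EV, and 3.73, 2.87 and 1.96 in MSC-EV. MSC-EV replicates 1 and 2 were above all PBS samples, and replicate 3 was within the PBS range. The log2 difference of MSC-EV from PBS was 0.49 (SE 0.232) and from HEK-EV 0.29 (SE 0.232). The difference from PBS was 0.22 with a pseudocount of 5 and 0.84 with depth as a covariate. From HEK-EV it was 0.13 without MSC-EV replicate 1 and 0.49 without HEK-EV replicate 1. There were 21.3, 29.6 and 45.9 Cd274 transcripts per Pdcd1lg2 transcript in PBS, 18.8, 27.3 and 31.8 in HEK-EV, and 20.5, 16.2 and 21.1 in MSC-EV, as ratios of TPM. All MSC-EV ratios were below all PBS ratios, by a narrow margin, and the HEK-EV range overlapped both. Pdcd1, the gene of their receptor PD-1, averaged 1.24 ± 0.593 TPM in PBS, 1.05 ± 0.448 in HEK-EV and 0.418 ± 0.185 in MSC-EV (SD, n = 3 each), and limma did not call it (adjusted p = 0.157 against PBS).

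Cd40 (gene ID 21939, chr2:165055614-165071654, plus strand) had 20.8, 26.3 and 20.3 TPM in PBS, 25.9, 21.5 and 16.5 in HEK-EV, and 28.9, 23.3 and 18.9 in MSC-EV. The spread within a group was as wide as that between groups, and all 3 overlapped. The log2 difference of MSC-EV from PBS was 0.06 (SE 0.186), and -0.08 without MSC-EV replicate 1. The ligand gene Cd40lg, which activated T cells express, was listed at 0 in 7 of 9 samples and at 0.0601 and 0.0648 TPM in PBS replicate 3 and HEK-EV replicate 1.

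Havcr2 (gene ID 171285, chr11:46454931-46481255, plus strand) was the most abundant member by the mean of each group. In MSC-EV replicate 1 Cd274 was higher, at 76.4 TPM. Havcr2 had 88.6, 98.0 and 87.0 TPM in PBS, 97.0, 86.3 and 82.6 in HEK-EV, and 51.9, 65.8 and 70.5 in MSC-EV. All MSC-EV samples were below all others. The means were 91.2 ± 5.96 TPM in PBS, 88.6 ± 7.50 in HEK-EV and 62.7 ± 9.67 in MSC-EV (SD, n = 3 each). The MSC-EV level was 0.688 times that of PBS, a log2 difference of -0.54 (SE 0.112), and -0.50 (SE 0.112) from HEK-EV. Without MSC-EV replicate 1, the lowest sample, the difference from PBS was -0.41. Without MSC-EV replicate 3 it was -0.63, and with the acinar split as a term -0.55.

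Some myeloid transcripts were also lower in the samples where Cd86, Icosl and Havcr2 were. Itgam itself was between 289 and 377 TPM in PBS, 339 and 434 in HEK-EV, and 196 and 255 in MSC-EV, and in limma it fell against HEK-EV (-0.70, SE 0.134, adjusted p = 0.0257) but was not called against PBS (-0.53, adjusted p = 0.0553). The 9 macrophage and monocyte markers summed to between 5965 and 6585 TPM in PBS, 6090 and 6718 in HEK-EV, and 5690 and 5857 in MSC-EV. The lower MSC-EV sum rested on Ly6c2, a marker of inflammatory monocytes, at 504 to 1229 TPM in PBS, 714 to 936 in HEK-EV and 337 to 381 in MSC-EV. Without it the sums overlapped, at 5053 to 5461 TPM in PBS, 5337 to 5782 in HEK-EV and 5331 to 5476 in MSC-EV. Against PBS, Cd68, Mertk and Adgre1 had positive log2 differences (0.32, 0.31 and 0.09), without overlap for Cd68 (limma adjusted p = 0.0513). The other 6 markers had negative differences, and 3 of them, Itgam, Ly6c2 and Fcgr1, did not overlap. Fcgr1 was at -0.43 (limma adjusted p = 0.0744). Of these 9, limma called Ly6c2 lower against PBS (-1.35, adjusted p = 0.0376), and Itgam lower and Cd68, a lysosomal macrophage protein, higher against HEK-EV. The next lists had lower means in MSC-EV with ranges that overlapped those of at least 1 other group. Kupffer cell markers, all 5 past the filter, of which limma called 0 and 2 had an unadjusted p under 0.05 against PBS, ranged from 2138 to 2885 TPM in PBS, 1543 to 2791 in HEK-EV, and 1347 to 2257 in MSC-EV. Sinusoidal endothelial markers ranged from 262 to 312 TPM in PBS, 165 to 369 in HEK-EV, and 106 to 202 in MSC-EV, and limma called 0 of 7, all of which had an unadjusted p under 0.05 against PBS. Neutrophil markers ranged from 3009 to 5563 TPM in PBS, 4987 to 6850 in HEK-EV, and 2905 to 3722 in MSC-EV, and limma called 1 of 7, Csf3r, lower against HEK-EV. Against HEK-EV 6 of these 7 did not overlap and 6 had an unadjusted p under 0.05, and all 7 had a positive log2 difference between HEK-EV and PBS. Their part in the levels of Cd86, Icosl and Havcr2 was not tested.

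**Figure D3:**
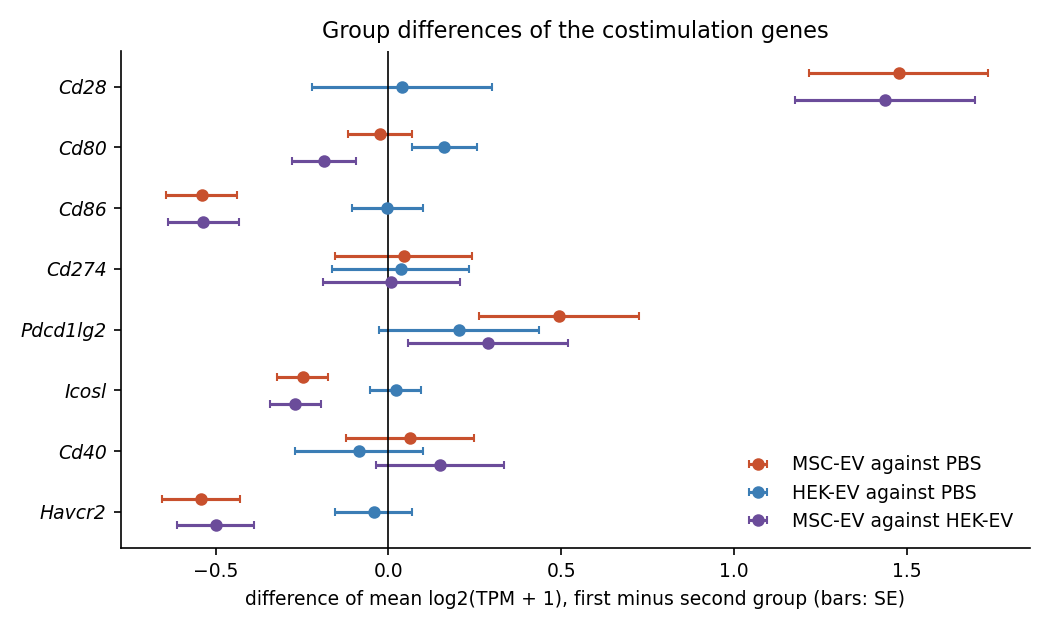
Difference of mean log2(TPM + 1) for the 8 genes past the filter in the 3 comparisons (points) with the standard error from the fit (bars). Cd28 lies at 1.48 and 1.44 in the MSC-EV comparisons and at 0.04 for HEK-EV against PBS, and Cd86 and Havcr2 lie at -0.54 against PBS.

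By mean TPM in PBS, the order was Havcr2, Cd86, Cd274, Icosl, Cd80, Cd40, Cd28, Pdcd1lg2 and Cd3e. Cd274 and Icosl (51.4 ± 6.56 and 51.2 ± 3.93 TPM), Cd80 and Cd40 (27.9 ± 2.97 and 22.5 ± 3.33 TPM), and Cd28 and Pdcd1lg2 (2.23 ± 1.13 and 1.72 ± 0.493 TPM, SD, n = 3 each) were neighbours whose means differed by less than the sum of their SDs. In MSC-EV, Cd274 at 54.8 ± 18.9 TPM stood between Havcr2 and Cd86 by its mean, with a spread that covered the means of Havcr2, Cd86 and Icosl. Cd28 at 7.84 ± 2.17 TPM remained below Cd40 at 23.7 ± 5.0 TPM in that group (SD, n = 3 each).

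Counted together, 4 of the 8 genes past the filter did not overlap between MSC-EV and PBS, 1 higher and 3 lower, where 26.0% of all genes tested did not (11.2% higher, 14.9% lower). Between MSC-EV and HEK-EV the count was also 4, in the same directions, where 30.1% of all genes did not overlap (12.6% higher, 17.5% lower). Between HEK-EV and PBS it was 0, where 7.81% of all genes did not (5.51% higher, 2.29% lower). Because the genes were picked with these values known, nothing is read from the counts. The comparisons with MSC-EV share the MSC-EV samples. The median log2 difference of the 8 was 0.01 between MSC-EV and PBS, beside 0.01 over all genes, and -0.09 between MSC-EV and HEK-EV, beside -0.02 over all genes.

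The wider pathway was covered by 5 lists with 68 other genes, of which 47 passed the filter. Between MSC-EV and PBS, limma called 1 higher and 2 lower (6.38% of 47), beside 5.11% of all genes (1.86% higher, 3.25% lower). Between MSC-EV and HEK-EV it called 1 higher and 9 lower (21.3%), beside 5.91% of all genes (1.51% higher, 4.40% lower). Between HEK-EV and PBS it called 0, with 1 gene at an unadjusted p under 0.05. The median log2 difference of the 47 was -0.17 against PBS and -0.18 against HEK-EV. On FPKM the split was 2 higher and 1 lower against PBS, and 1 higher and 3 lower against HEK-EV. The number of calls changed with the library left out, for reasons that were not tested. Against PBS 0 were left without PBS replicate 2, PBS replicate 3, MSC-EV replicate 1 or MSC-EV replicate 2, and there were 15 without PBS replicate 1. Against HEK-EV 0 were left without any 1 of the HEK-EV samples or without MSC-EV replicate 1 or 2, 6 without MSC-EV replicate 3, and 15 without PBS replicate 1.

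Among checkpoint genes, which include the ligands of TIM-3, 10 of 14 passed the filter. Ceacam1, a TIM-3 ligand and inhibitory receptor, fell from 138 ± 34.9 TPM in PBS and 132 ± 15.7 in HEK-EV to 61.0 ± 12.3 in MSC-EV (SD, n = 3 each). In limma its log2 change was -1.15 (SE 0.195, adjusted p = 0.0231) against PBS and -1.11 (adjusted p = 0.0225) against HEK-EV, so the transcripts of TIM-3 and of this ligand were lower in the same samples. Of the other TIM-3 ligands, Lgals9 (galectin-9) had a log2 difference of -0.33 from PBS (limma adjusted p = 0.0591) and Hmgb1, a nuclear danger signal, one of 0.14 (adjusted p = 0.492). Cd200, an inhibitory ligand for myeloid cells, rose from 1.79 ± 0.740 TPM in PBS to 4.41 ± 1.23 in MSC-EV (SD, n = 3 each). Its log2 change in limma was 0.96 (SE 0.210, adjusted p = 0.0376) against PBS and 0.98 (adjusted p = 0.0317) against HEK-EV.

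In the other CD28 and B7 family, 4 of 6 genes passed the filter (Icos, Pdcd1, Cd276 and Vsir). Ctla4, the inhibitory counterpart of CD28, was below 1 TPM in every sample, at most 0.325 TPM. Against PBS 0 of the 4 were called by limma, with 3 at an unadjusted p under 0.05. Against HEK-EV, 2 fell. Cd276 (B7-H3) changed by -0.70 (SE 0.135, limma adjusted p = 0.0263), with a mean of 3.99 TPM in HEK-EV and 2.09 in MSC-EV. Vsir, which encodes the inhibitory B7 relative VISTA, changed by -0.40 (SE 0.0875, limma adjusted p = 0.0330), with 242 ± 13.2 TPM in HEK-EV and 183 ± 11.0 in MSC-EV (SD, n = 3 each). Among 17 TNF-superfamily genes 8 passed the filter, and limma called 1 in any comparison, the HVEM ligand Tnfsf14, which fell by 0.42 (log2, SE 0.0817, adjusted p = 0.0263) between HEK-EV and MSC-EV. For Tnfsf14 HEK-EV was the group that stood apart, at 18.2 ± 1.01 TPM against 14.3 ± 1.07 in PBS and 13.4 ± 0.802 in MSC-EV (SD, n = 3 each), with all HEK-EV samples above all others. The HVEM gene Tnfrsf14 and its partner Btla were not called, with log2 differences of -0.11 and -0.24 from PBS.

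For signalling below the T-cell receptor and CD28, 8 of 14 genes passed the filter. Lcp2, the adaptor SLP-76 that myeloid cells also use, fell from 220 ± 18.4 TPM in PBS and 229 ± 11.6 in HEK-EV to 166 ± 4.99 in MSC-EV (SD, n = 3 each). In limma the log2 change was -0.40 (SE 0.0697, adjusted p = 0.0236) against PBS and -0.47 (adjusted p = 0.0205) against HEK-EV. The adaptor gene Grb2 and the exchange factor gene Vav1 were not called, with log2 differences of 0.03 and -0.13 from PBS. All 17 genes upstream or downstream of CD40 and PD-L1 passed the filter. Against PBS limma called 0 of the 17, with 9 at an unadjusted p under 0.05. Against HEK-EV 4 fell. These were Traf3, an adaptor that restrains non-canonical NF-kappaB signalling (-0.41, adjusted p = 0.0405), Nfkb2, a non-canonical NF-kappaB subunit (-0.30, adjusted p = 0.0341), the kinase Jak1 (-0.28, adjusted p = 0.0317) and Cmtm6, which stabilises PD-L1 protein (-0.27, adjusted p = 0.0425). The interferon-gamma receptor chain Ifngr1 was not called, at a log2 difference of -0.41 from PBS (limma adjusted p = 0.0546).

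**Figure D4:**
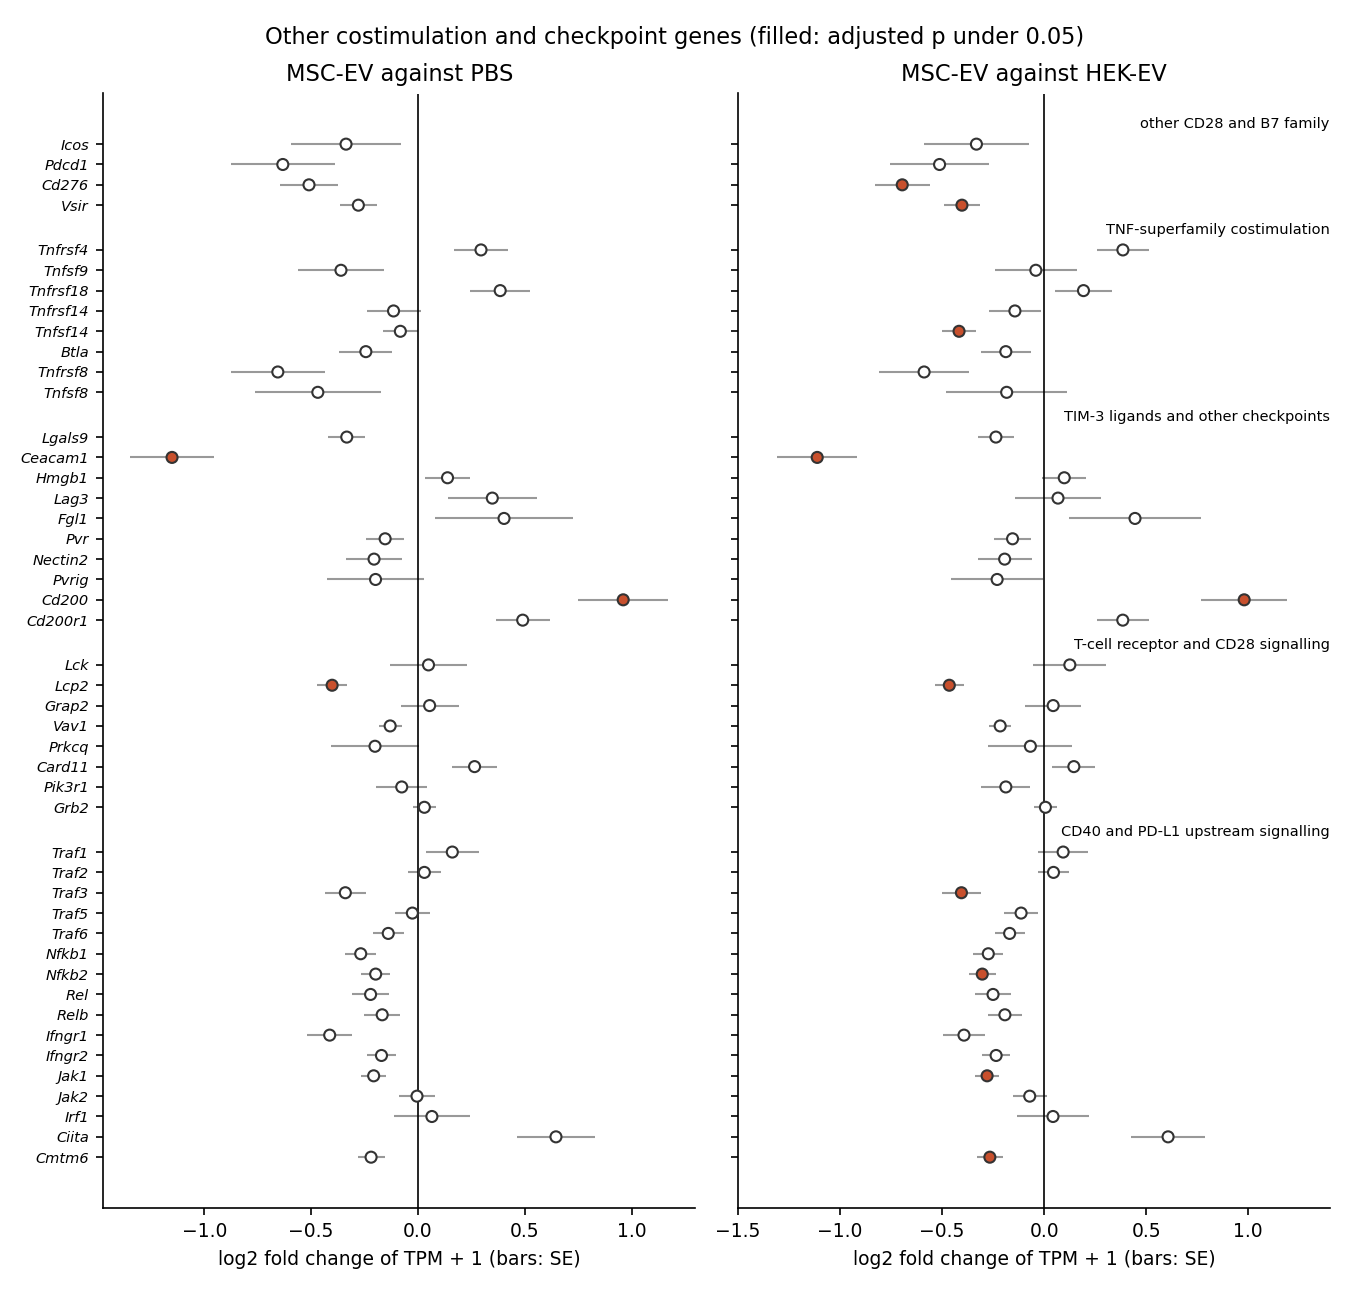
Log2 fold change of TPM + 1 (points) with SE (bars) for 46 of the 47 other pathway genes past the filter, for MSC-EV against PBS (left) and against HEK-EV (right). Filled points have a limma adjusted p under 0.05, which is 3 genes on the left (Ceacam1, Lcp2 and Cd200) and 10 on the right.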

How the data were processed

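RNA of CD11b+ liver cells was sequenced in 9 samples, 3 in each of 3 groups taken from the treatment in the labels, and per the labels' protocols the library kit was TruSeq Stranded mRNA. The submitters' processing notes name HISAT2 2.1.0, StringTie and the build mm10. Each deposited table gives coverage (mean read signal over a gene), FPKM and TPM per the file headers. TPM as deposited by the authors were summed per gene ID and used without rescaling. FPKM as deposited by the authors served as an alternative, and the coverage signal deposited by the authors as a check. Symbols came from RefSeq GRCm38.p6 (45679 of 45777 IDs matched).

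A gene was kept if 3 or more samples reached 1 TPM. Differences of log2(TPM + 1) were fitted with limma (version 3.58.1 under R 4.3.3; eBayes with trend), with all 9 samples in 1 fit and no covariate, and adjusted by Benjamini-Hochberg over 13820 genes (threshold 0.05, two-sided). The script was tested on simulated data. Other steps used Python 3.11.15 with pandas 2.3.3. The 9 genes and all gene lists were chosen with earlier results of these data known. Genes outside the 9 were named if called in any comparison (at most 6 a list) or as the 2 of highest mean TPM not called in a pathway list, and for Cd28 and Cd86 as the 5 with the highest r among genes with a mean of at least 5 TPM. Others, given as receptors, ligands or markers of the 9, were chosen after their values were seen. Of the genes the rule names, 2 are not reported here. Alternatives were other pseudocounts (0.1 and 5), filters (none, or 5 TPM), FPKM, median-of-ratios and quantile scaling, 6 samples only, array weights, a replicate block, depth as a covariate, a split by pancreatic acinar transcripts, and leaving out each sample.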

Additional observations from a re-analysis of the deposited data

How the results depend on the processing

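Under every alternative run, Cd28 stayed higher and Cd86, Icosl and Havcr2 lower in MSC-EV than in PBS and HEK-EV. The log2 difference of Cd28 from PBS ranged from 1.33 (without PBS replicate 2) to 1.75 with 1 library left out, and was 0.83 with a pseudocount of 5 and 2.03 with depth as a covariate. From HEK-EV it was 0.82 with a pseudocount of 5. The difference of Havcr2 from PBS was -0.71 with array weights. The number of the 9 genes without overlap between HEK-EV and PBS, 0 with all samples, was 0 to 1 with 1 library left out.

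Counts of calls were less stable, and the causes were not tested. All 29 limma calls among pathway and marker list genes were lost without at least 1 library, and 28 in at least 1 other setting. With 1 library left out, genes called ranged from 5 (without PBS replicate 2) to 1861 (without PBS replicate 1) between MSC-EV and PBS, from 0 to 2 between HEK-EV and PBS, and from 0 (without HEK-EV replicate 2, MSC-EV replicate 1 or MSC-EV replicate 2) to 1369 between MSC-EV and HEK-EV. Pathway calls ranged from 0 to 15 in both MSC-EV comparisons. Without a filter, which tests more genes, 361, 4 and 387 genes were called between MSC-EV and PBS, HEK-EV and PBS, and MSC-EV and HEK-EV, with 1 and 2 pathway genes in the MSC-EV comparisons. FPKM gave 459 genes and 4 pathway genes between MSC-EV and HEK-EV. Median-of-ratios scaling gave 501 genes there, with 5 pathway genes in each MSC-EV comparison, and quantile normalization gave 5 and 6. With only the 6 samples compared, 77 genes and 0 pathway genes were called between MSC-EV and PBS. Between MSC-EV and HEK-EV that setting called 1098 genes, with 2 pathway genes higher and 10 lower. Array weights gave 4163 and 2081 genes, with 26 and 18 pathway genes. Depth as a covariate gave 1423 and 1504 genes, with 9 pathway genes against PBS.

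Same-numbered samples did not deviate together (r between -0.499 and 0.058). HEK-EV replicate 2 and MSC-EV replicate 3, both rich in acinar RNA, had r of 0.547. Shared acinar RNA could hide a pairing, so these correlations do not show whether the numbers pair the samples. The replicate block gave 404 and 448 genes in the MSC-EV comparisons and 4 pathway genes between MSC-EV and HEK-EV. A planned split at acinar transcripts above 0.001% of TPM could not be fitted, since all 9 samples lay above it. A split at a median of 0.3 TPM, chosen after seeing the data, gave 21 genes and 0 pathway genes between MSC-EV and PBS, and 6 pathway genes between MSC-EV and HEK-EV. Depth is not known in reads, which limits what can be said of genes near 1 TPM.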
